A study of Mus musculus with 6 samples.

Results

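The genes described here are transcriptional targets and feedback inhibitors of fibroblast growth factor (FGF) signalling through the kinase ERK. They were chosen by symbol from a list of 10 genes: the ETS transcription factors Etv1, Etv4 and Etv5, the Sprouty inhibitors Spry1, Spry2 and Spry4, the related Spred1 and Spred2, the ERK phosphatase Dusp6, and Il17rd. Of these, 9 had a row in the deposited tables, among 11736 genes in all, and Etv1 is not analysed here. Over all listed genes, the mean of deposited values in the higher group was at least 1.005. Each of the 9 genes exceeded that in both groups, with a lowest group mean of 1.42, for Etv4 in Cdyl-KO. The list was drawn up with the difference between these same 2 groups known. Their differences and calls are therefore a description, and no p-value is given for them.

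RNA was profiled in gonadal somatic cells of male (XY) C57BL/6 embryos at E11.5, the stage at which the bipotential gonad starts on the testis path. The genotypes were Cdyl-Het with Nr5a1-hCD271 (3 libraries, heterozygous for the Cdyl deficiency) and Cdyl-KO with Nr5a1-hCD271 (3 libraries, homozygous). Cdyl encodes a chromodomain protein of transcriptional repressor complexes. All 6 libraries carry the Nr5a1-hCD271 marker, by which cells were collected on magnetic beads through the surface protein hCD271, and no group without a Cdyl deficiency is analysed here. Total RNA was sequenced after preparation with a strand-preserving kit for very small inputs. The form of the Cdyl mutation, and whether a library was made from 1 embryo or a pool, stand in none of the sources used here. The p-values below therefore measure the spread between these 6 libraries alone, which may be technical.

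FGF ligands bind receptor tyrosine kinases and, through RAS, RAF and MEK, activate ERK. ERK signalling raises the transcription of Etv4, Etv5, the Sproutys and Dusp6, and several of these products then damp the pathway, so their RNA is widely used as a readout of FGF activity. In the XY gonad, FGF9 supports the expression of Sox9 and opposes the ovary-promoting signal WNT4. The repressor Capicua (CIC) holds Etv genes and other targets silent until ERK relieves it.

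The deposited values are taken here as RPKM, read numbers set against gene length and library depth. No source used here states how they were made from counts. Divided by a scaling factor per library, they are called scaled RPKM below. RPKM is corrected for gene length, so on this reading levels of different genes can be set side by side. The values implied 34.6 to 45.2 M reads per library, and Pearson correlations across genes were 0.976 to 0.983 within and 0.962 to 0.977 between groups. Cdyl itself stood at 7.78, 8.04 and 8.27 scaled RPKM in Cdyl-Het and at 6.77, 6.95 and 7.01 in Cdyl-KO (limma adjusted p = 0.0635), which does not check the labels while the altered part of the gene is unknown. Markers of the collected cells were high in both groups: Nr5a1 at 85.9 ± 7.57 and 77.6 ± 6.87, Wt1 at 70.6 ± 4.65 and 75.7 ± 1.58, and Gata4 at 79.2 ± 7.93 and 75.0 ± 5.76 (SD, n = 3 per group).

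All 9 genes had a lower mean in Cdyl-KO than in Cdyl-Het, with Cdyl-KO means that ran from 27.1% (Etv4) to 89.6% (Spred2) of the Cdyl-Het means. In the limma fit across all genes, with a Benjamini-Hochberg adjusted p under 0.05 as the threshold, 6 of the 9 were called lower (Etv4, Etv5, Spry4, Il17rd, Dusp6 and Spry2) and 0 were called higher. Of all 11736 genes, 3.09% were called lower and 4.82% higher. In 7 of the 9 every Cdyl-KO library lay below every Cdyl-Het library, as in 15.0% of all genes. The median log2 difference of the 9 genes, Cdyl-KO minus Cdyl-Het on the log2(scaled RPKM + 1) scale, was -0.44, against -0.0042 over all genes. The group difference was used in choosing the list, so nothing is read from these counts. In bulk RNA of this kind, fewer cells of a type and less RNA per cell cannot be told apart.

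**Figure D1:**
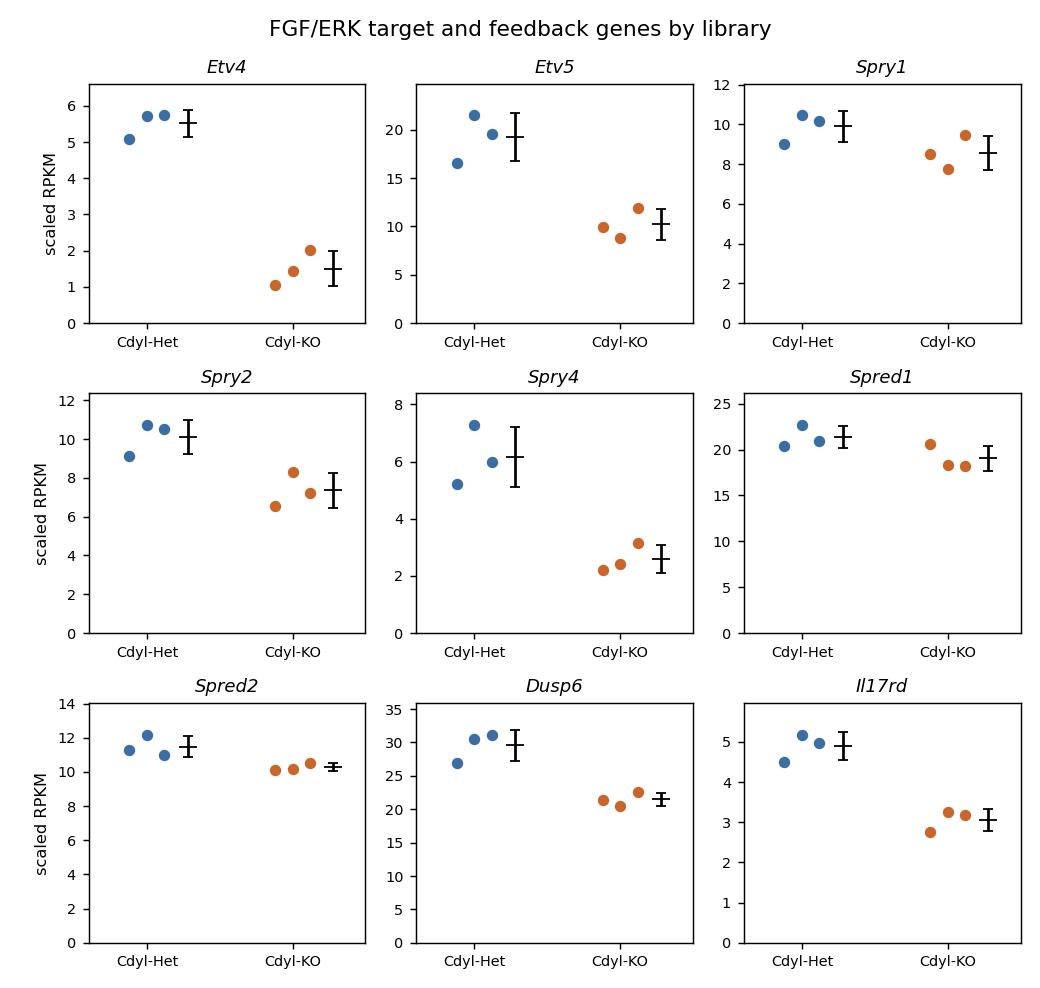
Scaled RPKM of the 9 genes in each library; points are libraries in the order of their replicate numbers, and the bar beside them is the mean ± SD (n = 3). Every panel starts at 0. The groups are apart in 7 panels and overlap in those of Spry1 and Spred1.

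Of the transcription factors, Etv4 encodes an ETS factor of the PEA3 group that is induced by FGF in many developing organs (chromosome 11, 101769742 to 101785371, minus strand, mm10). The Cdyl-Het libraries had 5.09, 5.73 and 5.75 scaled RPKM of Etv4, while those of Cdyl-KO had 1.05, 1.43 and 2.01. The highest Cdyl-KO library was thus well under the lowest Cdyl-Het library, and the Cdyl-KO mean was 27.1% of the Cdyl-Het mean. The log2 difference was -1.40 (SE 0.14), which placed Etv4 at rank 14 of 11736 genes ordered from the most negative difference. Taken as RPKM with GENCODE M21 gene lengths, the values correspond to 570 to 832 reads in Cdyl-Het and 136 to 264 in Cdyl-KO. If both reads of a pair were counted, counting alone gives an error of 12.1% on the lowest of these values.

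Etv5, the closely related factor (chromosome 16, 22381309 to 22439719, minus strand), was the more abundant of the pair. It was at 16.6, 21.5 and 19.6 scaled RPKM in Cdyl-Het and at 9.96, 8.80 and 11.95 in Cdyl-KO. The groups did not overlap, the Cdyl-KO mean was 53.2% of the Cdyl-Het mean, and the log2 difference was -0.85 (SE 0.13). The 2 factors were not lowered in proportion: Etv4 stood at 30.7%, 26.6% and 29.4% of the level of Etv5 in Cdyl-Het and at 10.6%, 16.2% and 16.8% in Cdyl-KO. This ratio compares levels within a library and does not depend on the scaling.

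The 250 bases before transcription start sites were looked up in the RefSeq promoter table (GRCm38.p6, the same build as mm10), which held 8 windows for 7 of the 9 genes. They were searched on both strands for the octamers TGAATGAA and TGAATGGA, to which CIC is known to bind, and for the ETS sequences CCGGAAGT and CGGAAG, the second of which lies within the first. Motifs of other factors downstream of ERK or active in the gonad (CRE, TGACGTCA; AP-1, TGANTCA; the core of the serum response element; SOX, AACAATGG) were searched as well and were in 0 of the 8 windows, against 2.64%, 3.72%, 0.0182% and 0.418% of the windows of listed genes. Neither of these 2 octamers was in any of the 8 windows. TGAATGAA is in 0.664% and TGAATGGA in 0.564% of the 10993 windows of listed genes. Other forms of the octamer, such as those with C as the second letter, were not searched. A window without a match may therefore still hold one of them. CCGGAAGT (5.94% of windows) was also in none of the 8 windows, while CGGAAG was in the windows of Dusp6, Spred1 and Spred2 (25.5% of windows). The first 6 letters of both octamers, TGAATG, which were chosen after the sequences were seen, were in 2 of the 8 windows and in 6.80% of the 10993. Both windows with a match are shown, on the minus strand for Etv5 and the plus strand for Dusp6. TGAATG or its reverse complement is in capitals. Etv5 and Dusp6, each with a window that held TGAATG, were called lower. The windows of Spry2 and Il17rd, called lower, and of Spry1, Spred1 and Spred2, not called, lacked it. No window was available for Etv4 or Spry4. Whether these letters bear on the levels was not tested. The Etv5 window shown (chr16:22438369-22438618) precedes a start site inside the gene and overlaps no exon in GENCODE M21. The other Etv5 window (chr16:22439571-22439820) held none of the motifs searched. The Dusp6 window is chr10:99262981-99263230.
Etv5: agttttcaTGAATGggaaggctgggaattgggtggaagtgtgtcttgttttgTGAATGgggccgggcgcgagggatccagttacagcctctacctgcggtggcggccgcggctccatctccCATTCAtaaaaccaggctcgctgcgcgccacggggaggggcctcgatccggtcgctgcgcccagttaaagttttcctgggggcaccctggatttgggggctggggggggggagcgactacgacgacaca
Dusp6: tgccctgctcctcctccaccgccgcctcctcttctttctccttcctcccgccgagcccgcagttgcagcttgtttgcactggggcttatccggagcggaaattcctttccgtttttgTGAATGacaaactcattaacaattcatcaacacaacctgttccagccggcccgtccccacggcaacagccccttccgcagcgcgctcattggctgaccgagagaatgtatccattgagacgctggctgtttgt
In the Etv5 window the 3 copies start 242, 198 and 129 bases before the start site, and each goes on with a further G on its own strand. TGAATG occurs 3 or more times in 11 of the 10993 windows, that shown for Etv5 among them. The count of 3 is that of this window itself, and the letters were chosen after the sequences were seen. Nothing is therefore read from this share. The matches are of letters only, and binding of CIC was not measured.

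Among the Sproutys, which are membrane-associated inhibitors of receptor tyrosine kinase signalling upstream of ERK, the 3 genes differed widely in how far they were lower. Spry4 was at 5.22, 7.29 and 5.98 scaled RPKM in Cdyl-Het and at 2.22, 2.43 and 3.16 in Cdyl-KO. The groups did not overlap, the Cdyl-KO mean was 42.2% of the Cdyl-Het mean, and the log2 difference was -0.99 (SE 0.13). Spry2 (chromosome 14, 105891947 to 105896819, minus strand) was at 9.13, 10.7 and 10.5 in Cdyl-Het and at 6.54, 8.32 and 7.23 in Cdyl-KO, again without overlap, with a log2 difference of -0.42 (SE 0.09). Spry1 (chromosome 3, 37639947 to 37644598, plus strand) was at 9.02, 10.5 and 10.2 against 8.51, 7.76 and 9.44, so that its highest Cdyl-KO library lay above its lowest Cdyl-Het library. Its log2 difference was -0.19 (95% interval -0.38 to 0.0088), and it was not called. Exons of Spry1 share 710 bases with Gm42922 on the opposite strand, and because the strand setting of the counting is not given, reads of the 2 genes may not be separated.

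Spry1 and Spry2 were alike in level in Cdyl-Het, where Spry2 stood at 101%, 103% and 103% of Spry1. In Cdyl-KO the ratio was 76.8%, 107% and 76.6%, so replicate 2 did not share the shift of the other two. Spry4 was at 57.8%, 69.6% and 58.8% of Spry1 in Cdyl-Het and at 26.1%, 31.3% and 33.4% in Cdyl-KO, with no overlap.

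The Spreds, relatives of the Sproutys that bring the RAS-inactivating protein neurofibromin to the membrane, had Cdyl-KO means of 89.1% (Spred1) and 89.6% (Spred2) of the Cdyl-Het means. Spred1 (chromosome 2, 117121374 to 117182279, plus strand) was at 20.4, 22.7 and 21.0 scaled RPKM in Cdyl-Het and at 20.6, 18.3 and 18.2 in Cdyl-KO. Cdyl-KO replicate 1 lay within the Cdyl-Het range, and the log2 difference was -0.16 (95% interval -0.32 to -4.8e-05). Spred2 (chromosome 11, 19924375 to 20024026, plus strand) was at 11.3, 12.2 and 11.0 against 10.1, 10.2 and 10.5, with groups that did not overlap but lay close together. Its log2 difference was -0.14 (95% interval -0.27 to -0.015). Neither Spred gene was called.

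Dusp6, the cytoplasmic phosphatase that inactivates ERK (chromosome 10, 99263231 to 99267489, plus strand), had the highest level of the 9 genes in both groups. It was at 26.9, 30.6 and 31.2 scaled RPKM in Cdyl-Het and at 21.3, 20.5 and 22.5 in Cdyl-KO. The groups did not overlap, the Cdyl-KO mean was 72.6% of the Cdyl-Het mean, and the log2 difference was -0.44 (SE 0.07). Il17rd, also called Sef, a transmembrane inhibitor of FGF receptor signalling (chromosome 14, 27038941 to 27107286, plus strand), was at 4.50, 5.18 and 4.98 in Cdyl-Het and at 2.75, 3.25 and 3.19 in Cdyl-KO. It did not overlap between groups either, and its log2 difference was -0.54 (SE 0.08).

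**Figure D2:**
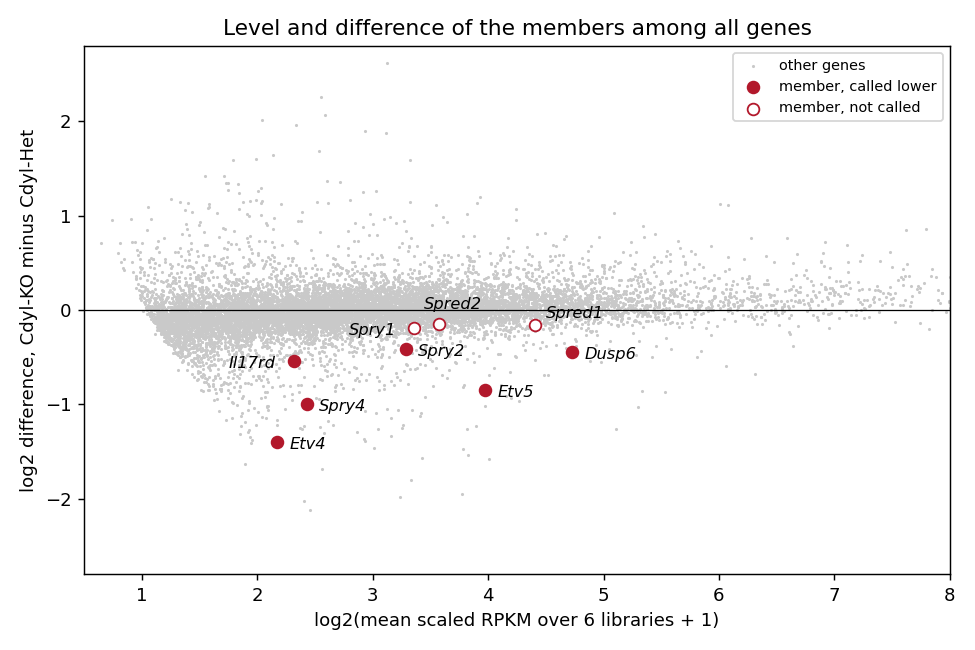
Log2 difference between the groups against mean level for all genes (grey; a few genes beyond the axes are not drawn) and for the 9 genes (red; filled where called lower, open where not called). The 6 called genes run from -0.42 (Spry2) to -1.40 (Etv4), and Spry1, Spred1 and Spred2 sit between -0.14 and -0.19.

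The order of the levels differed between the groups. In Cdyl-Het it was Dusp6, Spred1, Etv5, Spred2, Spry2, Spry1, Spry4, Etv4 and Il17rd, from 29.6 down to 4.89 scaled RPKM. The ranges of the 3 libraries overlapped between the neighbours Spred1 and Etv5, Spry2 and Spry1, Spry4 and Etv4, and Etv4 and Il17rd, so these pairs are not ordered beyond their spread. In Cdyl-KO the order was Dusp6, Spred1, Spred2, Etv5, Spry1, Spry2, Il17rd, Spry4 and Etv4, from 21.5 down to 1.5. There, only Spred1 and Spred2, Spry2 and Il17rd, and Spry4 and Etv4 were neighbours with separate ranges. Etv5 moved from above Spred2 without overlap to a level that overlapped it.

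Within groups, the order of the libraries was alike for most of the 9 genes. Cdyl-Het replicate 1 had the lowest level of its group for 8 of the 9 genes and Cdyl-Het replicate 2 the highest for 7. In Cdyl-KO, replicate 3 was the highest for 6 and replicate 1 the lowest for 5. The same counts were not made over all genes, so this order may not be particular to the 9. The mean deviation of the 9 genes from their group mean was -0.12, 0.10 and 0.02 (log2) in Cdyl-Het replicates 1 to 3 and -0.07, -0.03 and 0.10 in Cdyl-KO. These shifts were smaller than the median group difference of -0.44. The largest of them came near the log2 differences of Spry1 (-0.19), Spred1 (-0.16) and Spred2 (-0.14).

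The calls depended on single libraries, on the scaling and, for Spry2, on the trend in the spread, while the direction did not. With any 1 library left out, or under any of the other 8 settings, the log2 difference of each of the 9 genes stayed below 0 wherever the gene was tested. Etv4 and Spry4 were called with each of the 6 libraries left out. Libraries are named in short by group and replicate below (Het 1 to Het 3 and KO 1 to KO 3). Etv5 was not called without Het 3 (log2 difference -0.83), and Il17rd was not called without Het 2 or Het 3 (-0.50 and -0.52). Dusp6 was not called in 4 of the 6 such fits, those lacking Het 2, Het 3, KO 1 or KO 2 (-0.40 to -0.43). Spry2 was not called in those lacking Het 2, Het 3, KO 1 or KO 3 (-0.34 to -0.41), nor with all libraries in the fit without the trend (-0.42), which called 5 of the 9. The number called lower was 3 of 9 without Het 2, when 0.716% of all genes were called lower, and 2 of 9 without Het 3, when 0.520% were. On the deposited values without scaling all 9 were called lower, with 13.3% of all genes. There, 83.6% of all calls were lower, against 39.1% with scaling, and all genes had a median log2 difference of -0.12. The median of the 9 genes was then -0.58.

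**Figure D3:**
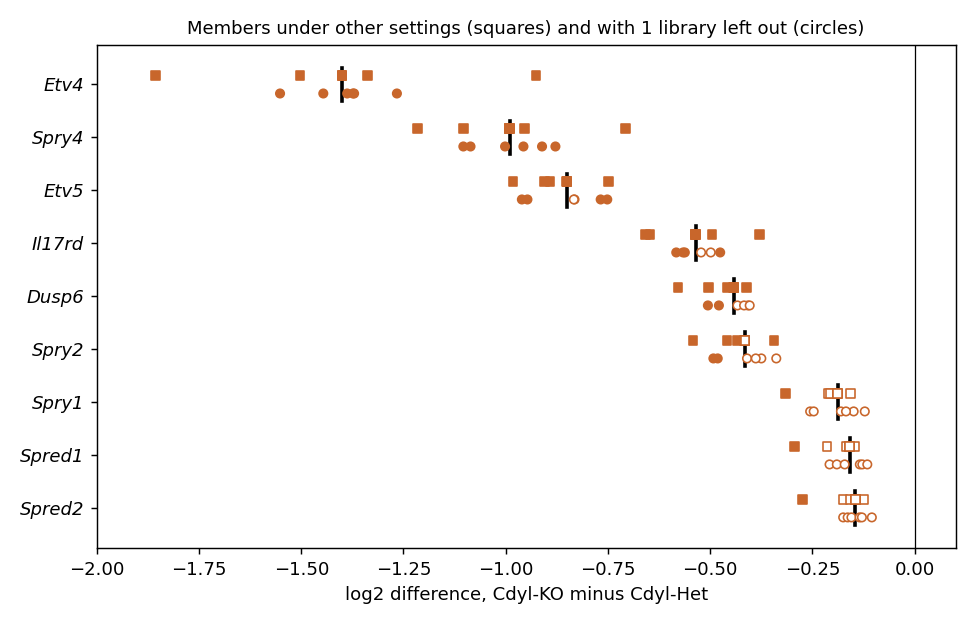
Log2 difference of the 9 genes under 8 other settings (squares) and with 1 library left out (circles); filled marks are called at an adjusted p under 0.05, and the black bar is the value reported. All marks lie below 0, and only Etv4 and Spry4 have no open mark. Etv4 has no value under the setting that requires a mean of 2 in both groups.

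The other steps of the pathway were read from lists of genes that are not among the 9. Their rows come from the same fit, and their p-values are limma's, adjusted over all genes, where 7.92% of genes were called in either direction. These lists and the marker lists below were also chosen with earlier results of these data known. Their calls and p-values are therefore a description as well, and not an independent test. Of 22 genes of the FGF family, 4 were listed, of which 1 fell. They are called ligands here by family, and binding to receptors was not a condition. Fgf9, the ligand of testis formation, was at 4.01, 6.54 and 5.38 scaled RPKM in Cdyl-Het and fell to 1.59, 1.30 and 2.20 in Cdyl-KO (log2 difference -1.22, SE 0.18, limma adjusted p = 0.0118). This call was lost without Het 3 (0.0582; 0.0092 to 0.0582 over all fits). Fgf18 was at 3.09 ± 0.585 and 2.07 ± 0.215, Fgf11 at 3.50 ± 0.173 and 3.25 ± 0.0518 and Fgf10 at 1.31 ± 0.106 and 1.25 ± 0.152 (SD, n = 3 per group), none of them past the threshold. Exons of Fgf10 overlap those of Gm16263 on the opposite strand.

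Of 15 listed FGF receptors, heparan sulfate co-receptors and their sulfatases, 1 fell and 2 rose, while 12 were not called (list median 0.04). The receptor gene Fgfr1 fell from 11.2 ± 0.153 to 9.49 ± 0.371 scaled RPKM (mean ± SD, n = 3 per group; log2 difference -0.22, limma adjusted p = 0.0456), a call that was lost with any library left out (0.0102 to 0.159 over all fits). With all libraries it was also lost without the trend (0.0643) and with the replicate block (0.125). Exons of Fgfr1 overlap those of Gm16159 on the opposite strand. Fgfr2 was at 10.6 ± 1.22 and 12.5 ± 0.502, Fgfr3 at 1.25 ± 0.165 and 1.30 ± 0.141 and the decoy-like receptor Fgfrl1 at 10.5 ± 1.55 and 8.34 ± 0.713, and none of these passed. Exons of Fgfr2 overlap those of Ctbp2 on the same strand, and exons of Fgfr3 those of G630022F23Rik on the opposite strand. The cell surface glypican Gpc3 rose from 195 ± 8.27 to 264 ± 10.4 (log2 difference 0.44, limma adjusted p = 0.0105) and kept its call with each library left out. Sulf1, a sulfatase that trims heparan sulfate, rose from 27.7 ± 2.70 to 38.6 ± 2.60 (0.47, limma adjusted p = 0.0218), a call lost without Het 2 or Het 3 or KO 1 or KO 3 (0.0188 to 0.0704 over all fits).

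All 27 adaptors, RAS proteins and kinases of the cascade were listed, with a median log2 difference of 0.0072. Of these, 25 stayed short of the threshold. Hras and Map2k2, which encodes MEK2, were called higher at the margin (log2 differences 0.23 and 0.27, limma adjusted p = 0.04999 and 0.0468) and kept the call in only 2 and 3 of 14 other fits, none of them with a library left out (up to 0.195 and 0.135). Without scaling 2 genes of the list were called as well, but both were lower.

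Inhibitors of the pathway other than the 9 genes stood around 0. Of 15 listed, 1 rose and 14 did not pass, with a median log2 difference of -0.0018. Dusp9, an ERK phosphatase like Dusp6, rose from 8.02 ± 1.098 to 11.8 ± 0.290 scaled RPKM (mean ± SD, n = 3 per group; log2 difference 0.51, limma adjusted p = 0.0198), opposite in direction to Dusp6. This call held without Het 1 and was lost with each other library left out (0.00737 to 0.0716 over all fits).

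Other genes that ERK commonly induces went both ways. Of 17 listed, 2 fell and 1 rose, 14 were not called, and the list median was 0.16. The ephrin receptor gene Epha4 fell from 4.34 ± 0.232 to 2.59 ± 0.186 scaled RPKM and Ccnd1, which encodes cyclin D1, from 13.8 ± 1.09 to 9.70 ± 0.454 (SD, n = 3 per group; log2 differences -0.57 and -0.47, limma adjusted p = 0.00826 and 0.0122). Both kept the call in all 14 other fits. Exons of Ccnd1 overlap those of LTO1 on the opposite strand. Flrt3, which encodes a membrane protein that promotes FGF signalling, rose from 4.10 ± 0.416 to 5.46 ± 0.192 (0.34, limma adjusted p = 0.0361) and among the fits with a library left out kept its call only without Het 2 (0.0345 to 0.111 over all fits). It was also lost without scaling (0.0802). Without scaling, 5 genes of this list were called and all 5 were lower. The immediate early genes Fos and Egr1, named after their values were seen, were not past the threshold, at 163 ± 18.4 and 230 ± 37.3 (limma adjusted p = 0.0686; 0.0482 without KO 2, the 1 other fit that called it) and at 60.4 ± 4.32 and 71.2 ± 12.4 (limma adjusted p = 0.293).

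Of 17 listed ETS factors outside the 9 genes and partners of CIC, 2 fell, 0 rose and 15 did not pass (list median 0.0041). Ets1 fell from 10.2 ± 1.04 to 7.26 ± 0.590 scaled RPKM and Elk3 from 7.67 ± 0.474 to 5.47 ± 0.468 (SD, n = 3 per group; log2 differences -0.44 and -0.42, limma adjusted p = 0.0264 and 0.0205). Ets1 lost its call without Het 2 or Het 3 or KO 1 or KO 3 (0.0138 to 0.0828 over all fits), and Elk3 without Het 2 or Het 3 or KO 2 (0.00936 to 0.0780 over all fits). Exons of Elk3 overlap those of Cdk17 on the opposite strand. Cic, named after its values were seen, was at 15.7 ± 0.599 and 18.0 ± 0.691 and did not pass (limma adjusted p = 0.0821). Ets1 and Elk3 are also expressed in endothelial cells.

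**Figure D4:**
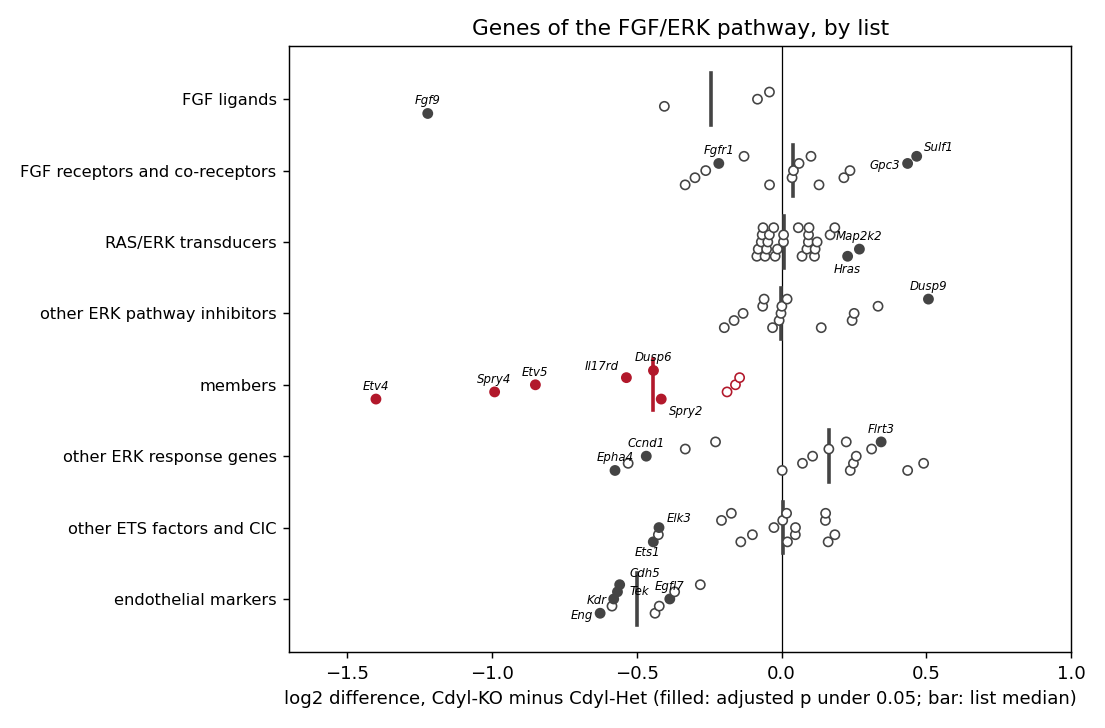
Log2 difference between the groups for each listed gene of the pathway lists, of the 9 genes (red, "members") and of endothelial markers; filled points have an adjusted p under 0.05 and carry their name, and the bar is the list median. The median was -0.44 for the 9 genes and between -0.24 and 0.16 for the other pathway lists, and -0.50 for endothelial markers.

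Markers of endothelial cells were lower in the same libraries. Of 10 listed endothelial markers, 5 fell and 0 rose, the other 5 were not called, and in 9 of the 10 every Cdyl-KO library lay below every Cdyl-Het library (15.0% of all genes). Their summed level was 38.9 to 41.6 scaled RPKM in Cdyl-Het and 24.4 to 28.1 in Cdyl-KO, and the median log2 difference was -0.50. Kdr, the VEGF receptor gene, fell from 10.8 ± 0.600 to 6.90 ± 0.497 (SD, n = 3 per group; limma adjusted p = 0.00729), and Egfl7, Cdh5 and Eng fell as well (limma adjusted p = 0.0277, 0.0321 and 0.0362). Kdr kept its call with each library left out. Egfl7 kept it only without Het 3, Cdh5 only without KO 2 or KO 3, and Eng only without Het 1 or KO 2 (up to 0.0931, 0.11 and 0.121). With all libraries, these 3 lost it with the replicate block (0.0820, 0.0717 and 0.0763), and Egfl7 also with cyclic loess (0.0629). None of these 4 markers changed direction in any other fit. Exons of Egfl7 overlap those of Gm20532 and Agpat2, and exons of Eng those of Fpgs. No listed endothelial marker was at 0. Of 9 listed gonadal somatic markers, 1 fell and 2 rose, while 6 were not called (median log2 difference 0.10). Sox9, the Sertoli cell factor that FGF9 supports, fell from 51.8 ± 7.34 to 25.1 ± 5.20 (limma adjusted p = 0.0144). The early gonad factors Emx2 and Lhx9 rose, with log2 differences of 0.57 and 0.46 (limma adjusted p = 0.0120 and 0.0259). Exons of Emx2 overlap those of Emx2os on the opposite strand. Sox9 lost its call without Het 2 or Het 3 or KO 1 (up to 0.0670), and Lhx9 without Het 2 or any 1 of the Cdyl-KO libraries (up to 0.0855). Whether fewer endothelial cells or fewer Sertoli precursors have a part in the lower levels of the 9 genes was not tested.

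The markers of other cell types were as follows. The 3 listed germ cell markers summed to 5.82 to 7.38 scaled RPKM in Cdyl-Het and 5.67 to 5.75 in Cdyl-KO, with 0 of 3 called. The 7 listed markers of mesonephric epithelium summed to 15.1 to 21.5 and 17.3 to 21.6, with 1 called, Pax8, which rose (limma adjusted p = 0.0222; called only without Het 1 among the fits with a library left out, up to 0.0706). Exons of Pax8 overlap those of Gm13415 on the opposite strand. The 6 listed blood and macrophage markers, mostly globins, summed to 43.4 to 223 and 47.1 to 132, with 0 called. Of the neural crest and glia markers only Ngfr, the mouse gene of CD271, was listed, at 15.25 to 17.65 and 11.97 to 14.02 scaled RPKM; the groups did not overlap, and it was not called (limma adjusted p = 0.0685).

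The genes whose pattern over the 6 libraries was most like that of the 9 genes were taken by Pearson's r with their mean profile, among 6649 other genes with a mean of at least 5 scaled RPKM. They were Col18a1, which encodes a basement membrane collagen (r = 0.997), Lmo4, a LIM-domain transcriptional cofactor (0.997), Lrp4, a receptor of the LDL receptor family (0.995), Tpd52l1 (0.995) and Tns1, a focal adhesion protein (0.994). All 5 were called lower, with log2 differences of -0.86, -0.72, -1.29, -0.97 and -0.44. The most opposite were Aurkaip1, Unc119b, Nucb1, Gadd45g and Natd1 (r = -0.997 to -0.994), all 5 called higher by 0.21 to 0.60. Of the 10 genes, Tns1, Natd1, Nucb1 and Unc119b lost the call in 4 or more of the fits with a library left out. The 6 libraries form 2 groups, so r follows the group difference to a large extent and is a description of these libraries.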

How the data were processed

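The submitters' processing notes name STAR, Subread with featureCounts 1.6.4, and mm10. No source used here gives the annotation, how strand was handled, the gene filter or the step from counts to values. The authors deposited 1 value per gene and library, taken here as RPKM from the values alone, since they are not whole and have no fixed sum. For single-exon genes, value times length came in whole multiples of a step (87.4% to 90.7% of low values within 0.02), which implied 34.6 to 45.2 M reads per library. With GENCODE M21 lengths, 47 of the 54 values of the 9 genes were within 0.1 of a whole read number, and 40 of these were even, so both reads of a pair may have been counted.

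Values were divided by a trimmed mean of log ratios per library (30% of ratios and 5% of levels trimmed at each end). limma 3.58.1 in R 4.3.3 was fitted to log2(scaled RPKM + 1) of all 11736 genes with a group term and a spread that follows the level, without a further filter, and p-values were adjusted by Benjamini-Hochberg (threshold 0.05). Means and SDs are of scaled RPKM. On 5 simulated sets of 11736 genes with 200 changed, 65.6%, 94.1% and 98.0% of log2 changes of 0.5, 1 and 1.5 were recovered, and 5.38% of calls were false. The simulated spread was normal, independent between genes and taken from the fit itself. These shares therefore check the procedure and do not measure the share of false calls in the real data.

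The 9 genes and the gene lists were chosen with earlier results of these data known. Named were the 9 genes, all listed FGF ligands and receptors, up to 6 called genes of each other pathway list (4 of each marker list), Nr5a1, Wt1, Gata4, and the 5 genes most and least like the mean profile; others are marked where they appear. The 14 alternatives were 3 other scalings, 2 pseudocounts, a level filter, no trend, a replicate block and leaving out each library.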

Additional observations from a re-analysis of the deposited data

How the results depend on the processing

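Over 14 alternatives, none of the 9 genes reversed its direction. With 1 library left out, 2 to 6 of them were called lower and 0 were called higher, and their median log2 difference was -0.51 to -0.40. Without scaling the median was -0.58. The number of all genes called lower was 363 and called higher 566; it was 1558 and 305 without scaling, 131 and 217 with the replicate block, and 61 to 274 and 197 to 417 with 1 library left out. Genes called in the pathway lists also moved. Without scaling there were 2 ligands, 7 receptor and co-receptor genes, 5 other response genes and 5 ETS genes. With cyclic loess there were 5 receptor genes and 0 transducers. Transducers numbered 0 with median of ratios scaling, without the trend or with the replicate block, and 1 with a pseudocount of 0.1. The filter on a mean of 2 in both groups removed Etv4 and Fgf9, which are low in Cdyl-KO, and left 0 called ligands. With 1 library left out, 0 to 1 ligands, 1 to 2 receptor genes, 0 transducers, 0 to 1 other inhibitors, 2 to 3 other response genes and 0 to 2 ETS genes were called; fewer samples were then fitted. Signs turned for genes near 0: Fgf10 (0.056 with cyclic loess, -0.076 to 0.018 with 1 library left out), Fgfr3 (-0.043 without scaling, -0.025 to 0.090 with 1 library left out), Wt1 (-0.038 without scaling, -0.0083 with cyclic loess) and Gata4 (-0.14 to 0.0048 with 1 library left out). The cause of the other changes was not tested.

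Replicate numbers are shared between the groups, but deviations of same-numbered libraries did not go together (r = -0.05, -0.27 and -0.05 across genes for numbers 1 to 3). The deviations of each library correlated best with those of a library of another number. The numbers are therefore not taken as pairs. With the replicate block 6 of the 9 genes were called lower, and 0 ETS genes of the other list were called. Calls were lost there for Hras, Map2k2, Fgfr1, Flrt3, Ets1, Elk3, Lhx9, Pax8, Egfl7, Cdh5, Eng, Natd1, Nucb1 and Unc119b. Their limma adjusted p was 0.0548 to 0.129.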
